A study of Mus musculus with 9 samples.

Results

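Ccr7, Tcf7, Il7r and Il6ra are transcripts of naive and circulating T cells. They were taken by name from a deposited table of 770 genes, and these 4 rows are described here in all 9 samples of T cells from lymph node, lamina propria and gut epithelium. All 4 were measured and all 4 passed the filter on low values. Ccr7 was above the floor of the table in 8 of 9 samples, Tcf7 and Il7r in 9 and Il6ra in 7.

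Naive T cells circulate between blood and lymph nodes. CCR7 is the chemokine receptor by which they follow CCL19 and CCL21 into the node. TCF-1, the product of Tcf7, is a transcription factor that keeps T cells in a naive or memory state. The IL-7 receptor alpha chain (Il7r) pairs with the common gamma chain to carry a survival signal. The IL-6 receptor alpha chain (Il6ra) pairs with gp130 (Il6st) and, in CD4 cells, takes part in the choice between regulatory and Th17 fates. T cells that settle in the gut, above all those between epithelial cells, are known for little lymph node homing.

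The samples came from mice on the B10.RIII background, a strain susceptible to experimental autoimmune uveitis, and transcripts were counted by hybridization, each with a capture probe carrying biotin and a reporter probe carrying a barcode. There was 1 CD4 and 1 CD8 sample from each of 4 tissues: peripheral lymph node, mesenteric lymph node, lamina propria and the intraepithelial compartment. A ninth sample, also intraepithelial, was labelled CD4CD8. The protocols, worded alike for all samples, name WT and Rag2-/- IRBP-/- R161H mice, immunization with a peptide of the retinal protein IRBP in complete Freund's adjuvant, and short or long treatment of WT mice with ampicillin, metronidazole, neomycin, vancomycin and gentamicin. No label says which genotype, treatment or age a sample had, or whether animals were pooled, so the comparisons here are of tissues and subsets. Each combination is 1 sample, so every p-value below sets a difference against the spread left over by its model, moderated over genes. In the main model that spread is how far tissue differences varied between CD4 and CD8. None reflects spread between replicate samples.

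Values are log2 normalized counts with a floor of 4.32. The lowest listed value above the floor, taken here as the detection limit of a sample, was 6.30, 5.52 and 5.05 in the CD4, CD4CD8 and CD8 samples of the epithelium. It was 5.59 in lamina propria CD8, and the other 5 samples reached down to 4.38 or lower. The labels held up against lineage markers: Cd4 was at the floor in the CD8 samples and Cd8a in the CD4 samples, and CD4CD8 held Cd4 (10.06) and Cd8a (11.50) with Cd8b1 at the floor. Of 9 B cell markers 6 were at the floor in all 9 samples, Pax5 and Cd79a among them, while Cd79b was above it in 7 samples (up to 7.27, in intraepithelial CD8), and the list summed to 0 to 154 normalized counts. Of 14 measured myeloid markers 9 were at the floor throughout, Itgam and Csf1r among them, while Cybb (7.47) and Cd68 (6.44) were above it in intraepithelial CD4 and Lyz2 was 9.52 and 8.98 in the lamina propria. The lamina propria samples stood apart by epithelial transcripts: 5 of 7 measured epithelial markers were above the floor there, with a summed level of 5687 to 6894 normalized counts, against 98 to 573 in intraepithelial samples and 0 to 43 in nodes. The mean of 16 housekeeping genes was 8.34 to 8.52 in the 9 samples. These are bulk samples, so fewer cells carrying a transcript and less of it per cell cannot be told apart.

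Promoter windows of the genes are shown because their transcripts moved in the same direction across these tissues. RefSeq's table for GRCm38.p6 held windows (250 bases before to 50 bases after a start site) for 3 of the 4 genes, with a pair of start sites for Tcf7. Capitals mark matches on either strand to a FOXO motif (TGTTTAC), a KLF motif (CACCC), a TCF and LEF motif (CTTTGA), an ETS motif (AGGAA) and a RUNX motif (TGTGGT). They are written 5′ to 3′ on the strand of the gene.
Il7r, chr15:9529827-9530126, minus strand: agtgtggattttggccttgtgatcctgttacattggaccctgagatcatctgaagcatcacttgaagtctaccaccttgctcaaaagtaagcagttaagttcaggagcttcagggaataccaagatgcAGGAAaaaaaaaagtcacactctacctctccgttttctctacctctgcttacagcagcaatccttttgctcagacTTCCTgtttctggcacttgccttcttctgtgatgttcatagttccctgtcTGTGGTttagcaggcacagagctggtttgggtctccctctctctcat
Il6ra, chr3:89913147-89913446, minus strand: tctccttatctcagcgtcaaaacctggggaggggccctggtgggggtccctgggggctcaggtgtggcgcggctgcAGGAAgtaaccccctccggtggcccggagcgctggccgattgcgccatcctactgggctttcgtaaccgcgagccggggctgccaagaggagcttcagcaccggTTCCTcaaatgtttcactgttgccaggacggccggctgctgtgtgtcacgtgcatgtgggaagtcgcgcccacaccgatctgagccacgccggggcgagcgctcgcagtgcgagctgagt
Tcf7, upstream start site, chr11:52282965-52283264, minus strand: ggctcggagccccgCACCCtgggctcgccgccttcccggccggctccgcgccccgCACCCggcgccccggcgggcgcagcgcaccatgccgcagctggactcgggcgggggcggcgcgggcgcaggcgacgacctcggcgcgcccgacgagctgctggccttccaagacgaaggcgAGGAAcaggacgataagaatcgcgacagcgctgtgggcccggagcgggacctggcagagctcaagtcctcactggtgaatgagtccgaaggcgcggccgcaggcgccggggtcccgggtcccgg
Tcf7, downstream start site, chr11:52282546-52282845, minus strand: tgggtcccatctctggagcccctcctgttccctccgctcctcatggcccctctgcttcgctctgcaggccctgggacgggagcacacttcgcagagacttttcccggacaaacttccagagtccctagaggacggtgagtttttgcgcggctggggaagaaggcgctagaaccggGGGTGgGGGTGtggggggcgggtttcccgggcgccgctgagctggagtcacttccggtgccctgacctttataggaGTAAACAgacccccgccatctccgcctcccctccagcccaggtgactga
The ETS letters were in the Il7r, Il6ra and upstream Tcf7 windows, and in 66.7% of all 32851 windows of this length. The KLF letters were in both Tcf7 windows and in 57.5% of all windows. The FOXO letters were in the downstream Tcf7 window, 2 bases past the start site, against 3.65% of all windows, and the RUNX letters were in the Il7r window, against 16.8%. The TCF and LEF letters were in none of these 4 windows and in 16.0% of all. The windows differ in base composition: G and C made up 45.7% of the Il7r window and 76.3% of the upstream Tcf7 window. In the upstream Tcf7 window the ETS letters fall within an open reading frame that begins at an ATG in the same window. The downstream Tcf7 window lies past the upstream start site. Both Tcf7 windows may thus hold transcribed or coding bases. These matches describe letters and were not tested for binding.

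Ccr7 had the steepest profile of the 4 genes. In CD4 samples it was 11.34 in the peripheral node, 10.91 in the mesenteric node, 9.63 in the lamina propria and 6.37 in the epithelium. In CD8 samples it was 11.59, 11.24, 10.48 and 6.69 in the same order. The 4 node samples lay above both lamina propria samples, and these above both intraepithelial samples, with no overlap. On a linear scale, CD4 cells had 2592 normalized counts in the peripheral node, 792 in the lamina propria and 83 in the epithelium. The intraepithelial CD4 value stood for 21 counts (95% Poisson interval 13.0 to 32.1, which is 5.68 to 6.98 on the log2 scale) and the CD8 value for 62 counts (47.5 to 79.5). These intervals cover counting error only. The CD4 value of 6.37 lay just above that sample's limit of 6.30, and its interval ran below this limit.

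Tcf7 fell in smaller and more even steps. In CD4 samples it was 11.45 in the peripheral node, 11.68 in the mesenteric node, 10.65 in the lamina propria and 9.87 in the epithelium. In CD8 samples it was 11.20, 11.23, 10.40 and 9.78. The order was the same in both subsets from node to lamina propria to epithelium, and the compartments did not overlap. The 2 subsets were close in every tissue, with CD8 lower by 0.09 to 0.45 on the log2 scale.

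Il7r stayed close to the node level in the lamina propria of CD4 cells. It was 10.27 and 10.07 in the peripheral and mesenteric node of CD4 cells, 10.04 in the lamina propria and 8.80 in the epithelium. In CD8 samples it was 10.61, 10.48, 9.89 and 8.71. The gap of 0.03 between the mesenteric node and the lamina propria in CD4 is too small to order these samples, while both intraepithelial samples lay more than 1 log2 unit below every other CD4 or CD8 sample.

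Il6ra was nearest to the floor, and its CD4 and CD8 samples lay apart in each tissue. In CD4 samples it was 8.85, 8.75, 7.29 and 6.37 from peripheral node through mesenteric node and lamina propria to epithelium. In CD8 samples it was 7.45, 7.52 and 6.48 in the first 3 tissues and at the floor in the epithelium, where the limit was 5.05. The CD4 sample was above the CD8 sample in each tissue, and the lamina propria CD4 value was below the CD8 values of both nodes. The intraepithelial CD4 value stood for 21 counts and lay just above that sample's limit of 6.30.

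**Figure D1:**
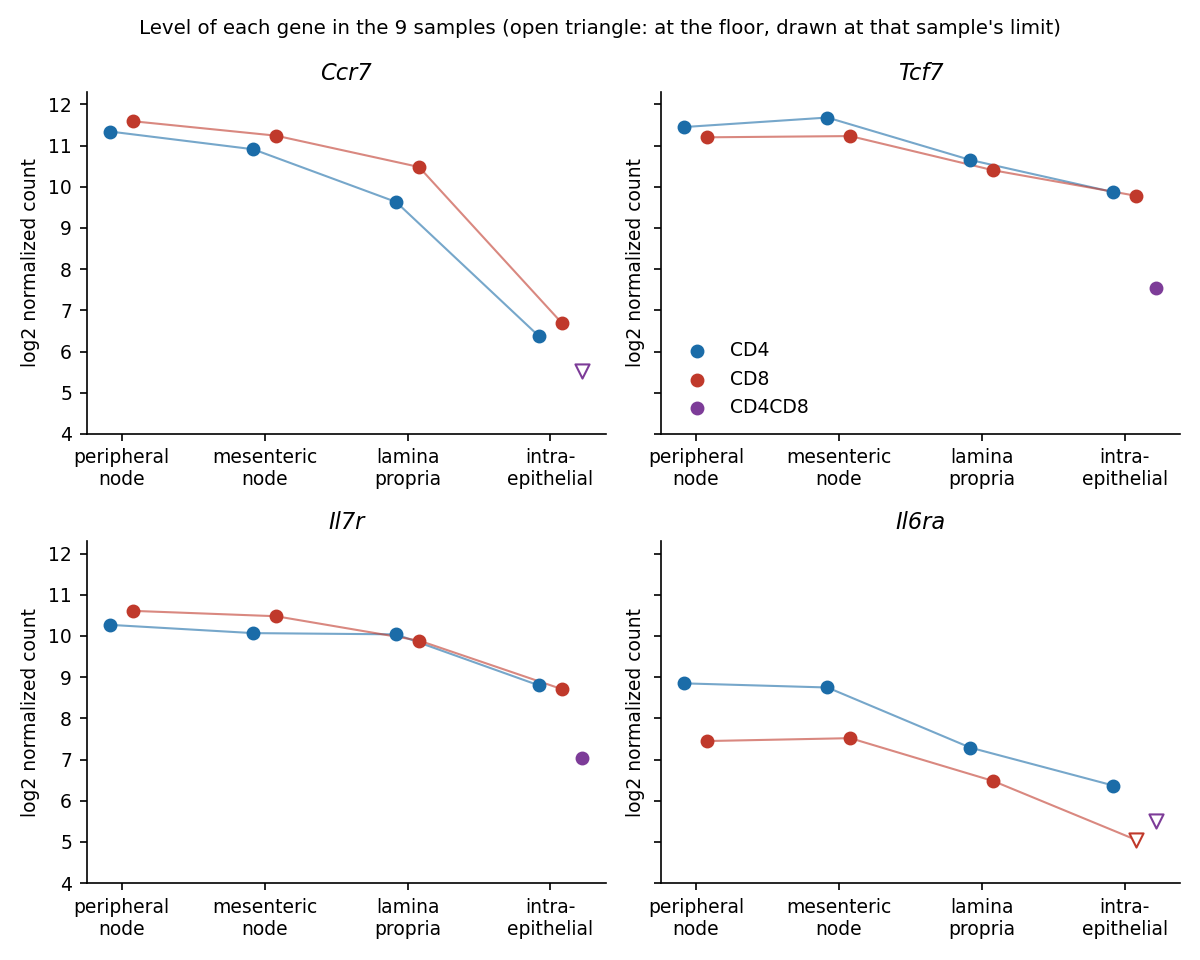
The level of each gene (log2 normalized count) is plotted for the 4 tissues, with 1 point per sample, and lines join the samples of a subset. Ccr7 drops from 11.34 to 6.37 in CD4 and from 11.59 to 6.69 in CD8, and the CD4CD8 sample lies below the other intraepithelial samples for Tcf7 (7.54) and Il7r (7.03). Open triangles are values at the floor drawn at the limit of their sample.

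The first question was how far the whole path from node to epithelium changed each transcript. All 4 genes were lower in the intraepithelial CD4 and CD8 samples than in the nodes (limma, adjusted over 433 genes), where 14.3% of all tested genes were called lower and 17.1% higher. Ccr7 fell by 4.74 ± 0.15 on the log2 scale (adjusted p = 0.000115; errors are standard errors of the model, which used 8 samples), which is 26.7-fold. This was the lowest difference of the 433 genes in this fit. Il6ra fell by 2.80 ± 0.28 (adjusted p = 0.00353), or -2.43 with the sample at the floor taken at its limit. Tcf7 fell by 1.57 ± 0.11 and Il7r by 1.60 ± 0.16 (adjusted p = 0.00191 and 0.00348), both close to 3-fold. Within the subsets the Ccr7 difference was -4.76 in CD4 and -4.72 in CD8, that of Tcf7 -1.70 and -1.44, and that of Il7r -1.37 and -1.83. For the 16 housekeeping genes the same difference ran from -0.99 to 0.63, so all 4 genes lay outside their range.

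These calls held in every alternative setting that gave a value, 21 each for Ccr7, Tcf7 and Il7r and 20 for Il6ra, with a highest adjusted p of 0.0362 for Il6ra. The lamina propria samples, which carried the epithelial transcripts, do not enter the estimate of this difference, only its error. Of 9 T cell markers, Cd3e, Cd3g and Cd5 were higher and Cd2 lower in the same comparison, with a list median of 0.09.

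The second question was where on the path the change fell. From node to lamina propria, Ccr7 fell by 1.22 ± 0.15, Tcf7 by 0.87 ± 0.11 and Il6ra by 1.26 ± 0.28 (adjusted p = 0.00706, 0.00702 and 0.0352), with 10.4% of all tested genes called lower and 12.2% higher. Il7r was not called (-0.39 ± 0.16, 95% interval -0.80 to 0.01, adjusted p = 0.140). Its difference was -0.13 in CD4 and -0.65 in CD8. The lowest and highest housekeeping differences of this step were -0.79 and 0.65, so that of Tcf7 lay just outside and that of Il7r inside their range. With single samples left out, the Ccr7 call was lost without peripheral CD4 (-1.15, adjusted p = 0.0512), and the Tcf7 call without that sample or either lamina propria sample (-0.87 to -0.86, adjusted p = 0.0512 to 0.0671). The Il6ra call was lost without any 1 of the node or lamina propria samples (-1.63 to -0.88, adjusted p = 0.0769 to 0.183).

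The lamina propria step moved together with other transcripts. All 5 tested epithelial markers were higher there, and of 9 T cell markers Cd3d and Cd247 were lower, with a list median of -0.46 against -0.01 for all genes. Myeloid markers summed to 836 and 505 normalized counts in the lamina propria, all of it Lyz2 in CD8, against 25 to 264 elsewhere. When each sample was centred on its 4 CD3 chain genes, a setting chosen after the data were seen, the lamina propria difference was -0.67 for Ccr7 (adjusted p = 0.0345), -0.32 for Tcf7 and -0.71 for Il6ra (adjusted p = 0.157 and 0.146). Under that setting the median over the 433 genes went from -0.01 to 0.53. With the compartment as the only term of the fit the Il6ra call was lost as well (adjusted p = 0.295).

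From lamina propria to epithelium all 4 genes fell, with 9.7% of all tested genes called lower and 12.5% higher. Ccr7 fell by 3.53 ± 0.17, which is 11.5-fold (adjusted p = 0.00146). Il6ra fell by 1.54 ± 0.33 (-1.17 with the floor value at its limit), Il7r by 1.21 ± 0.18 and Tcf7 by 0.70 ± 0.12 (adjusted p = 0.0317, 0.0154 and 0.0201). The T cell marker list moved the other way at this step: Cd3d, Cd3e, Cd3g and Cd5 were higher and Cd2 lower, with a median of 0.61 against 0.00 for all genes. Of 5 tested epithelial markers 4 were called lower in the epithelium on the listed values, as the 4 genes were. With floor values at their limits, Epcam was at -3.05, Dmbt1 at -6.59 and the myeloid marker Lyz2 at -3.58. At these limits Ccl25 (-1.42) was no longer called (limma, adjusted p = 0.0839). The part of these markers in the differences of the 4 genes was not tested. The Tcf7 difference of this step, -0.70, lay inside the housekeeping range of -0.97 to 0.36. With all values below 6.30 raised to it, the Il6ra difference was -0.55 and not called (adjusted p = 0.329). Left-out samples also ended calls: Il6ra without any 1 node or lamina propria sample (adjusted p = 0.0713 to 0.150), Tcf7 without intraepithelial CD4, either lamina propria or either peripheral sample (0.0566 to 0.107), and Il7r without either lamina propria sample or peripheral CD4 (0.0512 to 0.0772).

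**Figure D2:**
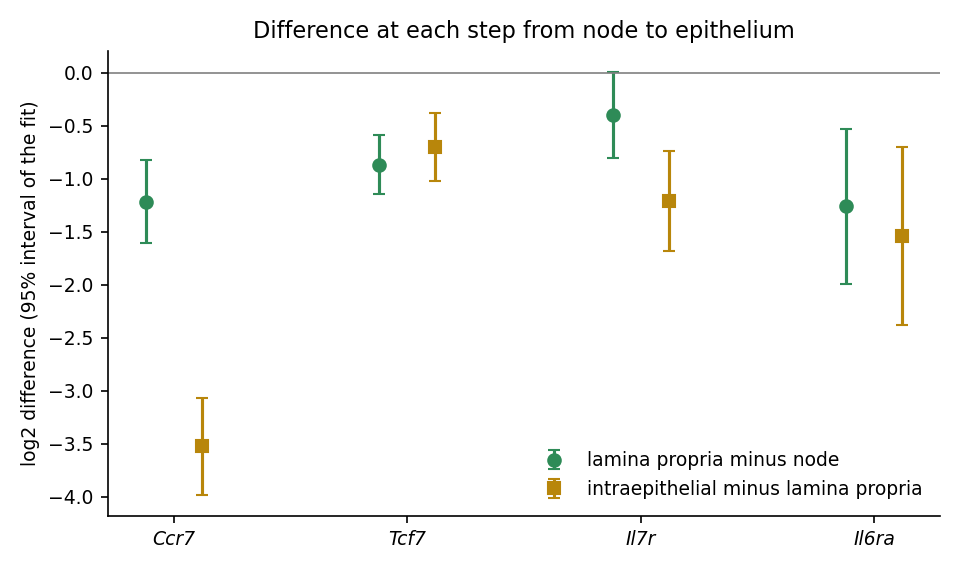
The log2 difference at the step from node to lamina propria (circles) and from lamina propria to epithelium (squares) is plotted for each gene with the 95% interval of the fit. For Ccr7 the second step (-3.53) is well below the first (-1.22), whereas the intervals overlap for Tcf7, Il6ra and, narrowly, Il7r.

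The difference between the steps was tested directly, in a contrast added after the data were seen. For Ccr7 the second step was larger than the first by 2.31 ± 0.29 log2 units (contrast -2.31, adjusted p = 0.0100), with 7.39% of all tested genes called in that direction and 8.31% in the other. For Il7r the contrast was -0.82 ± 0.30 (adjusted p = 0.143), for Il6ra -0.28 ± 0.54 (adjusted p = 0.766) and for Tcf7 0.17 ± 0.20 (adjusted p = 0.628). The Ccr7 call was lost without the lamina propria CD8 sample (-1.76, adjusted p = 0.0754). It was lost too without the peripheral CD4 sample and without the mesenteric pair (adjusted p = 0.0503 and 0.0548).

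Counted by order, all 4 genes ran from intraepithelial through lamina propria to both nodes in CD4 and in CD8. For Il7r in CD4 this rests on the gap of 0.03 between lamina propria and mesenteric node, which is too small to order them. Of all tested genes 24 had this order, or 5.54%. Others among the 24 were Icam2, Itga4 and Cd2. The values of the 4 genes also had no overlap between the 4 gut and the 4 node samples, for Il7r by that same 0.03, as did 11.5% of tested genes (7.62% had the gut samples above the node samples).

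**Figure D3:**
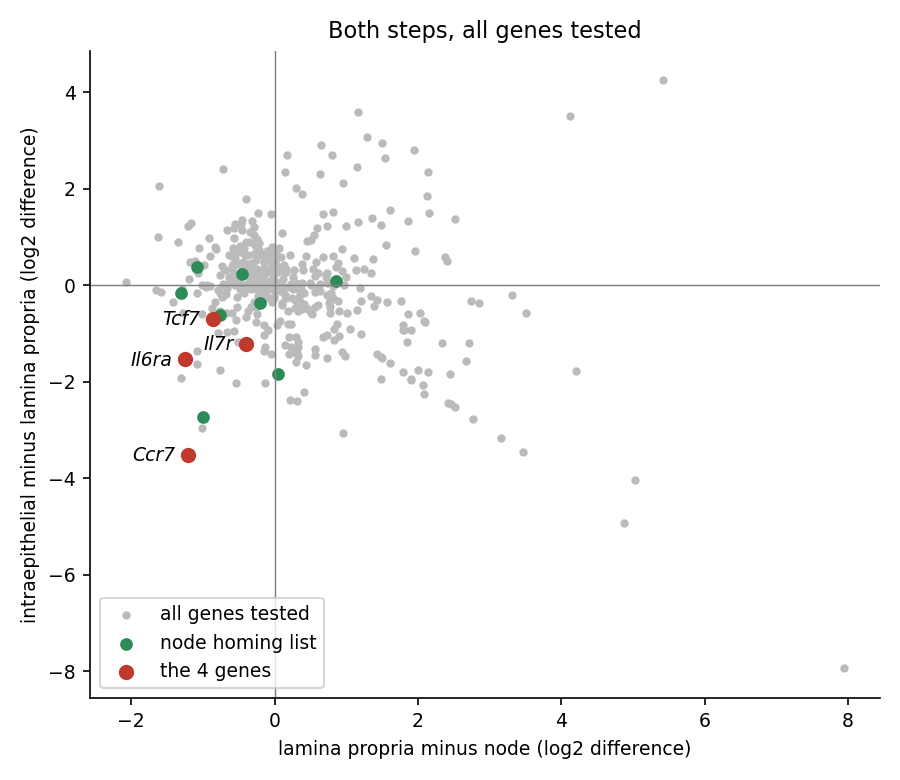
Each point is 1 of the 433 tested genes, with the log2 difference from node to lamina propria on the x axis and from lamina propria to epithelium on the y axis. Both axes share the lamina propria samples, which alone tilts the cloud. Ccr7, Il6ra, Tcf7 and Il7r (red) lie in the lower left quadrant, where both steps go down, with Ccr7 lowest of the 4, and green points are genes listed for node homing.

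The nodes were not told apart by these genes. Mesenteric minus peripheral, the Ccr7 difference was -0.39 ± 0.17 (-0.43 in CD4 and -0.35 in CD8), and those of Tcf7, Il7r and Il6ra were 0.13, -0.17 and -0.02. None was called (adjusted p = 0.837 for Ccr7 and 1 for the others). In this comparison limma called 0 of 433 genes (0%), and 20 had an unadjusted p under 0.05.

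Between subsets, Il6ra was lower in CD8 by 1.37 ± 0.23 (limma, adjusted p = 0.0236, lower in 4 of 4 tissues). With the floor value at its limit this difference was smaller, at -1.19 ± 0.15. Of all tested genes 9.24% were called lower and 5.54% higher. The Il6ra difference was -1.40 in the peripheral node, -1.23 in the mesenteric node and -0.81 in the lamina propria. In the epithelium it was -1.32 with the CD8 value at its limit, so the gap there was 1.32 or more, counting error aside. The call was lost without any single node sample (adjusted p = 0.0910 to 0.105). Ccr7 was higher in CD8 in 4 of 4 tissues, by 0.25 to 0.85, and was not called (0.44 ± 0.12, adjusted p = 0.0894). Tcf7 (-0.26 ± 0.09, adjusted p = 0.124) and Il7r (0.13 ± 0.13, adjusted p = 0.521) were not called either. Il7r was higher in CD8 in both nodes (0.41 and 0.34) and lower in the lamina propria and the epithelium (-0.15 and -0.09). The test of that change of the gut minus node difference with subset gave -0.50 ± 0.11 (adjusted p = 0.113), with 6 of 433 genes called (1.39%). For Ccr7, Tcf7 and Il6ra the same test gave 0.30, 0.18 and -0.12 (adjusted p = 0.545, 0.566 and 0.930). With the floor value at its limit the Il6ra value changed sign, to 0.25 (limma, adjusted p = 0.769).

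The CD4CD8 intraepithelial sample had the lowest levels of Tcf7 and Il7r among the 9 samples. Tcf7 was 7.54, or 81 counts (64.3 to 100.7), against 9.87 and 9.78 in the CD4 and CD8 intraepithelial samples. Il7r was 7.03, or 57 counts (43.2 to 73.9), against 8.80 and 8.71. The counting intervals do not overlap those of the other intraepithelial samples where these could be set (8.52 to 9.06 for Il7r in CD4). Ccr7 and Il6ra were at the floor, below the limit of 5.52. Counting error aside, Ccr7 was thus at least 0.85 below intraepithelial CD4 and 1.17 below CD8. For Il6ra no order against CD8, also at the floor, can be given.

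With 1 sample there is no test. Floor values were taken at the limits of their samples for a count over 385 genes above the floor in at least 1 intraepithelial sample. Of these, 3 lay at least 1 log2 unit below both other samples (0.779%): Tcf7, Il7r and Itgb1, the beta-1 integrin chain. The same distance above both other samples was reached by 5 genes (1.3%). For genes at the floor in CD4CD8 the limit of 5.52 capped the distance below. Ccr7, listed at 4.32 there, was thus placed at 0.85 and not counted. The 9 T cell markers of CD4CD8 summed to 18214 normalized counts, against 9300 in CD4 and 14920 in CD8.

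**Figure D4:**
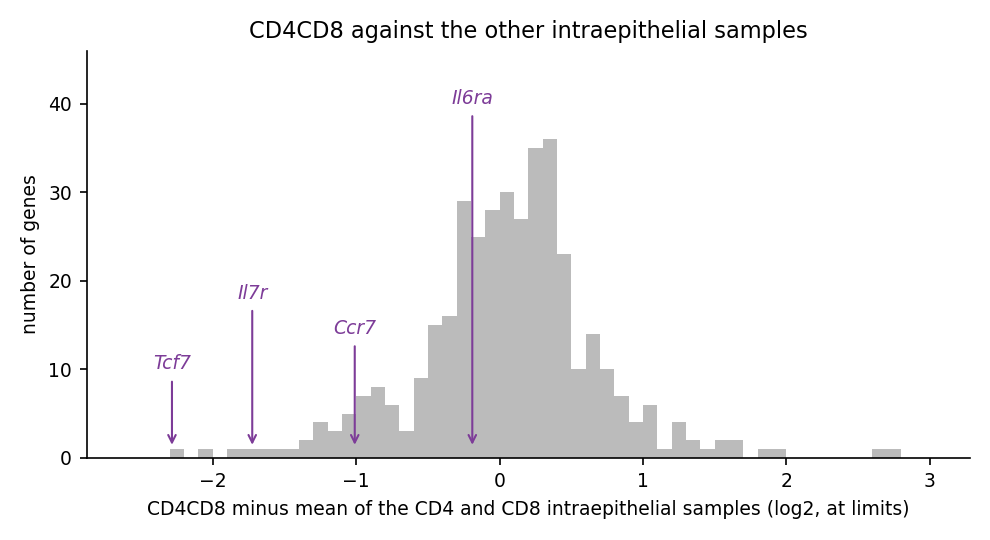
The histogram counts genes by the log2 difference between CD4CD8 and the mean of the other 2 intraepithelial samples, with floor values at the limit of their sample. Tcf7 and Il7r lie in the left tail and Ccr7 (an upper bound) closer in. Il6ra, at the floor in CD4CD8 and CD8, is placed near the median of 0.09 by their limits.

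Of 14 genes listed for lymph node homing, 12 were measured and 8 tested. In gut minus node 4 were lower and 0 higher, with a median of -0.88 against 0.04 for all genes, where 13.2% were called lower and 15.7% higher. Among them Itga4 (alpha-4 integrin) fell by 1.38 ± 0.09, Icam2 (a ligand of LFA-1) by 1.07 ± 0.14 and Itgb2 (the beta chain of LFA-1) by 0.90 ± 0.09. Itgal, the alpha chain of LFA-1, and Cxcr4 were not called (-0.34 and -0.87). The CCR7 ligand Ccl19 was at the floor in all 9 samples and Ccl21a reached 4.34 in lamina propria CD4. Cd44, an activation and memory marker of T cells, was listed at the floor in all samples. It could therefore not set these samples apart, and whether its probe reported was not tested.

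Of the IL-7 receptor pathway, 14 of 19 listed genes were measured and 12 tested, with 1 higher and 3 lower in gut and a median of -0.12. The common gamma chain Il2rg fell by 0.54 ± 0.10 (adjusted p = 0.0147). Its difference from node was -0.70 in lamina propria and -0.38 in epithelium (adjusted p = 0.0153 and 0.0716). Its values ran only from 8.39 to 9.26, a narrower range than that of Il7r. Jak1, the kinase bound to the alpha chain, fell by 0.85 ± 0.07, and Pik3cd by 0.68 ± 0.08. The Pik3cd difference from node was -1.06 in lamina propria and -0.29 in epithelium, the latter not called. From lamina propria to epithelium Pik3cd was called higher (0.77). Jak3, the kinase of the gamma chain, rose by 0.53 ± 0.14. Il4ra was lower (-1.22) and Socs1 lower (-0.40) in epithelium against node. Bcl2, a survival gene downstream of IL-7, was not called (-0.08 ± 0.22).

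Of the IL-6 receptor pathway, 12 of 14 listed genes were measured and 9 tested, with 2 higher and 1 lower in gut and a median of -0.08. The shared chain Il6st was not called: it was 6.24 to 7.24 in the 9 samples and its gut difference was -0.13 ± 0.19 (adjusted p = 0.601). Stat3, the main transcription factor of the pathway, rose by 0.56 ± 0.12 and Jak2 by 0.67 ± 0.18 (adjusted p = 0.0220 and 0.0493). Socs3, a feedback inhibitor, was 6.92 to 7.44 in nodes and lamina propria, 5.73 in CD8 cells of the epithelium, and not above the floor in the other epithelial samples. Socs3 was lower in epithelium than in lamina propria by limma, with a difference of -2.38 ± 0.45 as listed and -1.39 ± 0.24 with the floor value at its limit (adjusted p = 0.0243 and 0.0183).

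Of 21 listed T cell transcription factors, 11 were measured and 10 tested. In gut minus node, Ikzf1 (Ikaros) fell by 1.13 ± 0.12 and Tbx21 (T-bet, a factor of effector cells) rose by 1.19 ± 0.22. The Ikzf1 difference from node was -1.63 in lamina propria and -0.63 in epithelium. From lamina propria to epithelium Ikzf1 was called higher (1.005). Tbx21 was at the floor in both CD4 node samples, and its intraepithelial CD4 value of 6.30 was that sample's limit. With floor values at their limits its gut difference was 1.16. In epithelium against node Runx3 was also higher (0.87 ± 0.24) and Gata3 lower (-0.64 ± 0.16). Prdm1 (Blimp-1) was called higher as well: it was 6.30 and 5.73 in the CD4 and CD8 samples of the epithelium and at the floor in all 4 node samples. The CD4 value of 6.30 was that sample's limit. Counting error aside, the Prdm1 difference was at least 1.66 on the log2 scale with the nodes at their limits (limma, adjusted p = 0.0479 as listed and 0.0166 at the limits). Lef1, Foxo1 and Klf2 were not analysed here.

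Likeness of profiles was measured as the root mean square difference of log2 values over the 9 samples after each gene's mean was taken off, among 239 genes above the floor in all samples. Tcf7 and Il7r were each other's nearest gene by this measure, at 0.36. Icam2 and Cd53 came next for Tcf7 (0.49 and 0.59), and Itgb1 and Icam2 for Il7r (0.38 and 0.44). Tcf7 and Il7r were among the 3 genes nearest to Ccr7, each at 1.49, against 0.36 to 0.88 for the other pairs named here. The Ccr7 value of the CD4CD8 sample was at the floor. Nearest to Il6ra were Tcf7 (0.76), Hsd11b1 (0.83) and Cxcr4 (0.88), with 2 of its values at the floor. The 9 samples share tissues and subsets, so these distances describe the samples and carry no test.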

How the data were processed

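The authors deposited log2 values of 770 genes in 9 samples. Per the labels' protocols, RNA was purified on columns and hybridized with a capture probe with biotin and a reporter probe with a barcode. How samples were scaled, how the floor was set and which instrument counted the barcodes is not stated in the labels. The values have 2 decimals, and the floor of 4.32 is the log2 of 20. In 4 samples (the 3 intraepithelial samples and lamina propria CD8) low values fell on whole multiples of 1 count, worth 1.66 to 3.94 normalized counts; 94.0 to 100.0% of values up to 150 were whole within 0.005 log2, against 19.3 to 34.9% by chance. There the counts behind a value are given; in the other 5 samples the depth is unknown.

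Limma (version 3.58.1, R 4.3.3) with a mean-variance trend was run on the deposited log2 values, leaving out CD4CD8, in a model of tissue plus subset over 8 samples (3 residual and 1.89 prior degrees of freedom; 2 residual with the gut by subset term). A gene was tested if 2 or more of those samples exceeded the floor; 20 housekeeping genes were set aside and 433 genes remained. Tests are two-sided, with Benjamini-Hochberg adjustment per comparison and a threshold of 0.05. The fit was run on simulated data, with equal random spread for every gene and set shifts in the epithelium alone. Those data lack the other tissue and subset differences found here, so that run cannot show how the p-values behave. Alternatives covered scaling, the floor, the filter, the trend, the terms and left-out samples. Named genes were the 4 genes, listed pathway genes called in gut minus node or its parts, Il2rg and Il6st, and the 3 nearest profiles of each gene; other genes of these lists, the markers and Itgb1 were named after their values were seen. Some genes of these lists are not reported here. The genes and lists were chosen with earlier results of these data known. Python 3.11.15 with pandas 2.3.3 and numpy 2.4.6 gave the levels and distances.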

Additional observations from a re-analysis of the deposited data

How the results depend on the processing

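No paired analysis was possible because each combination of tissue and subset is 1 sample and the labels carry no replicate numbers. The differences of intraepithelial minus node and of gut minus node kept their direction and their call for all 4 genes under every alternative that gave a value. With 1 sample left out, Ccr7 ranged from -4.82 to -4.66, Tcf7 from -1.68 to -1.45, Il7r from -1.75 to -1.46 and Il6ra from -3.25 to -2.35 (intraepithelial minus node). The single steps were less firm. Lamina propria minus node ranged from -1.49 to -0.94 for Ccr7, -0.93 to -0.80 for Tcf7 and -1.63 to -0.88 for Il6ra; intraepithelial minus lamina propria ranged from -0.81 to -0.59 for Tcf7, -1.40 to -1.03 for Il7r and -1.99 to -1.09 for Il6ra. The step difference of Ccr7 ranged from -2.86 to -1.76 and the subset difference of Il6ra from -1.56 to -1.15. Counts of called genes with 1 sample left out ranged from 14 to 136 (lamina propria minus node), 10 to 102 (intraepithelial minus lamina propria), 62 to 141 (intraepithelial minus node), 66 to 186 (gut minus node), 2 to 98 (step difference), 20 to 66 (CD8 minus CD4) and 0 to 52 (the change of the gut difference with subset).

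Without the peripheral nodes, lamina propria minus node was -1.02 for Ccr7, -0.93 for Tcf7 and -1.25 for Il6ra, none called, and intraepithelial minus lamina propria was -0.70 for Tcf7 and -1.54 for Il6ra, neither called. Without the mesenteric nodes Il6ra lost both calls (-1.26 and -1.54) and the step difference of Ccr7 was -2.12. The subset difference of Il6ra was -1.36 and -1.42 without the peripheral and the mesenteric nodes and -0.88 with the floor raised to the highest limit, which also took the intraepithelial step of Il6ra to -0.55. The compartment term alone left Il6ra at -1.26 from node to lamina propria, not called. Median centring brought in Il7r from node to lamina propria (-0.70) and between subsets (0.40). CD3 chain centring left Tcf7 at -0.32 and Il6ra at -0.71 from node to lamina propria, not called, turned the step difference of Tcf7 to -1.28, and brought in Il7r for the step difference (-2.26) and for the change with subset (-0.78). The cause of these changes was not tested.

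Counts of called genes without the mesenteric and the peripheral nodes were 41 and 21 (lamina propria minus node, 98 reported), 55 and 26 (intraepithelial minus lamina propria, 96), 66 and 51 (intraepithelial minus node, 136), 65 and 48 (gut minus node, 125), 17 and 30 (step difference, 68), 21 and 22 (CD8 minus CD4, 64) and 0 and 0 (change with subset, 6). Without the lamina propria samples 30 genes were called between subsets and 0 for the change with subset. Genes above the floor in all samples gave 62 (intraepithelial minus lamina propria) and 42 (CD8 minus CD4); the raised floor gave 36 (CD8 minus CD4); the compartment term alone gave 73 (intraepithelial minus node). The change with subset had 12 calls with housekeeping centring, 21 with floor values at their limits and 35 with CD3 chain centring, which gave 191 for intraepithelial minus lamina propria and 140 for the step difference. Median centring moved the share of calls that were higher from 54.1% to 31.2% (lamina propria minus node), 54.4% to 32.6% (intraepithelial minus node), 54.4% to 28.9% (gut minus node) and 37.5% to 60.6% (CD8 minus CD4). CD3 chain centring moved it to 93.1%, 30.3% and 65.2% in the first 3 of these, and from 56.2% to 4.71% in intraepithelial minus lamina propria. Of the 3 nearest genes, Il7r shared 1 without the CD4CD8 sample and Il6ra shared 0 under Pearson correlation. Under Pearson correlation Tcf7 and Il7r were no longer each other's nearest gene (0.956). Icam2 was nearest to Tcf7 (0.962) and Socs1 to Il7r (0.958). Values near the floor, those of Il6ra above all, are limited by depth.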
